A study of Rattus norvegicus with 12 samples.

Results

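The genes described here are 10 components of Wnt signaling, chosen by name for their place in the pathway: the ligands Wnt5a and Wnt2, the receptors Fzd1, Fzd2 and Ror2, the secreted antagonists Sfrp1, Sfrp2, Dkk2 and Dkk3, and the intracellular mediator Ctnnb1. They were followed in fibroblast-like synoviocytes (FLS), the lining cells of the joint grown out of synovial tissue, after exposure to taurochenodeoxycholic acid (TCDCA), a taurine-conjugated bile acid. A gene record carrying the symbol was found for 9 of the 10 members among 22442 gene records, and Fzd2 was not analysed here. Of the 9, 7 reached a mean of 1 FPKM across the 12 libraries and entered the tests with 11611 records in all, whereas Wnt2 and Dkk2 stayed below that level.

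All libraries came from third-passage FLS of male Sprague Dawley rats in which adjuvant arthritis (AA) had been induced with complete Freund's adjuvant, so every group, the control included, was arthritic in origin and no healthy FLS were compared. Each of the 4 groups had 3 libraries. FCA cells were kept in DMEM alone, and AT10, AT1 and AT01 cells were given TCDCA at 10, 1 and 0.1 µM for 12 h. The ages of the rats were not given in the sources used here, and the study describes replicates 1 to 3 as repeats without saying whether they were separate animals or cultures, so a p-value measures only the spread between these libraries, which may be technical.

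Wnt proteins are secreted lipid-modified ligands that bind Frizzled receptors on the cell surface. With LRP co-receptors they stabilise β-catenin, the protein encoded by Ctnnb1, which enters the nucleus and works with TCF/LEF factors, whereas Wnt5a acts mainly through Ror receptors and Dishevelled on cell movement and polarity without β-catenin. SFRP proteins capture Wnt ligands outside the cell and Dickkopf proteins such as DKK2 act on the LRP co-receptors, and in inflamed synovium the pathway has been studied for fibroblast invasion and for joint erosion.

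The cells carried the markers of their label. Of 8 listed fibroblast markers, 6 had a record. All 6 were at or above 1 FPKM, with Vim at a mean of 2658 FPKM, Col1a1 at 846 FPKM and Thy1 at 138 FPKM. The summed level of 5 endothelial markers did not exceed 0.21 FPKM in any library. Of 5 macrophage markers, Cd14 had a mean of 13.8 FPKM and Cd68 of 2.13 FPKM, and both were above 0 in every library. Adgre1 and Mrc1 were listed at 0 in 8 and 10 libraries, and the sum of the 5, mostly Cd14, ran from 5.71 to 21.9 FPKM. The 5 smooth muscle markers, led by Acta2, which contractile fibroblasts also express, summed to between 344 and 447 FPKM in FCA, 250 and 317 FPKM in AT01, 281 and 322 FPKM in AT1, and 181 and 339 FPKM in AT10, and their part in the values below was not tested. Chondrocyte markers summed to between 4.73 and 10.1 FPKM, with Col2a1 at 0 in 9 libraries. Acan, however, had a mean of 4.31 FPKM, Comp of 1.70 FPKM and Sox9 of 1.32 FPKM. Adipocyte markers summed to between 78.4 and 105 FPKM, mostly Lpl (mean 55.0 FPKM) and Fabp4 (33.1 FPKM). Adipoq was at 1.87 FPKM and Plin1 at 1.62 FPKM on average, while Cidec and Lep were below 1 FPKM. In such bulk samples, fewer cells of a type and less RNA per cell cannot be told apart. Library sums of FPKM ran from 284210 to 309696, no 2 columns were identical, and the number of reads behind a single value is unknown.

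Ctnnb1, Ror2 and Wnt5a stayed within a narrow band in every group, Fzd1, Sfrp1 and Sfrp2 sat at 2 widely separated levels that divided libraries of the same group, and Dkk3 was low in 1 library. In no comparison of groups did any of the 7 tested members reach an adjusted p under 0.05 (limma, Benjamini-Hochberg over 11611 records). FPKM is a value per transcript length, which allows a rough comparison of levels between genes. For Fzd1, Sfrp1 and Sfrp2, a mean over the 12 libraries mixes their 2 levels. By mean FPKM over the 12 libraries, Ctnnb1 was highest (60.5 FPKM), followed by Fzd1 (43.0), Dkk3 (27.8), Ror2 (10.3), Sfrp1 (8.17), Wnt5a (4.39), Sfrp2 (2.43), Wnt2 (0.151) and Dkk2 (0.0017). The top of this order was loose, since Ctnnb1 exceeded Fzd1 in 7 of 12 libraries and Fzd1 exceeded Dkk3 in only 5 of 12. Dkk3 lay above Ror2 in 11 libraries, Ror2 above Sfrp1 in 8, Sfrp1 above Wnt5a in 9, Wnt5a above Sfrp2 in 11, Sfrp2 above Wnt2 in 12 and Wnt2 above Dkk2 in 11.

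**Figure D1:**
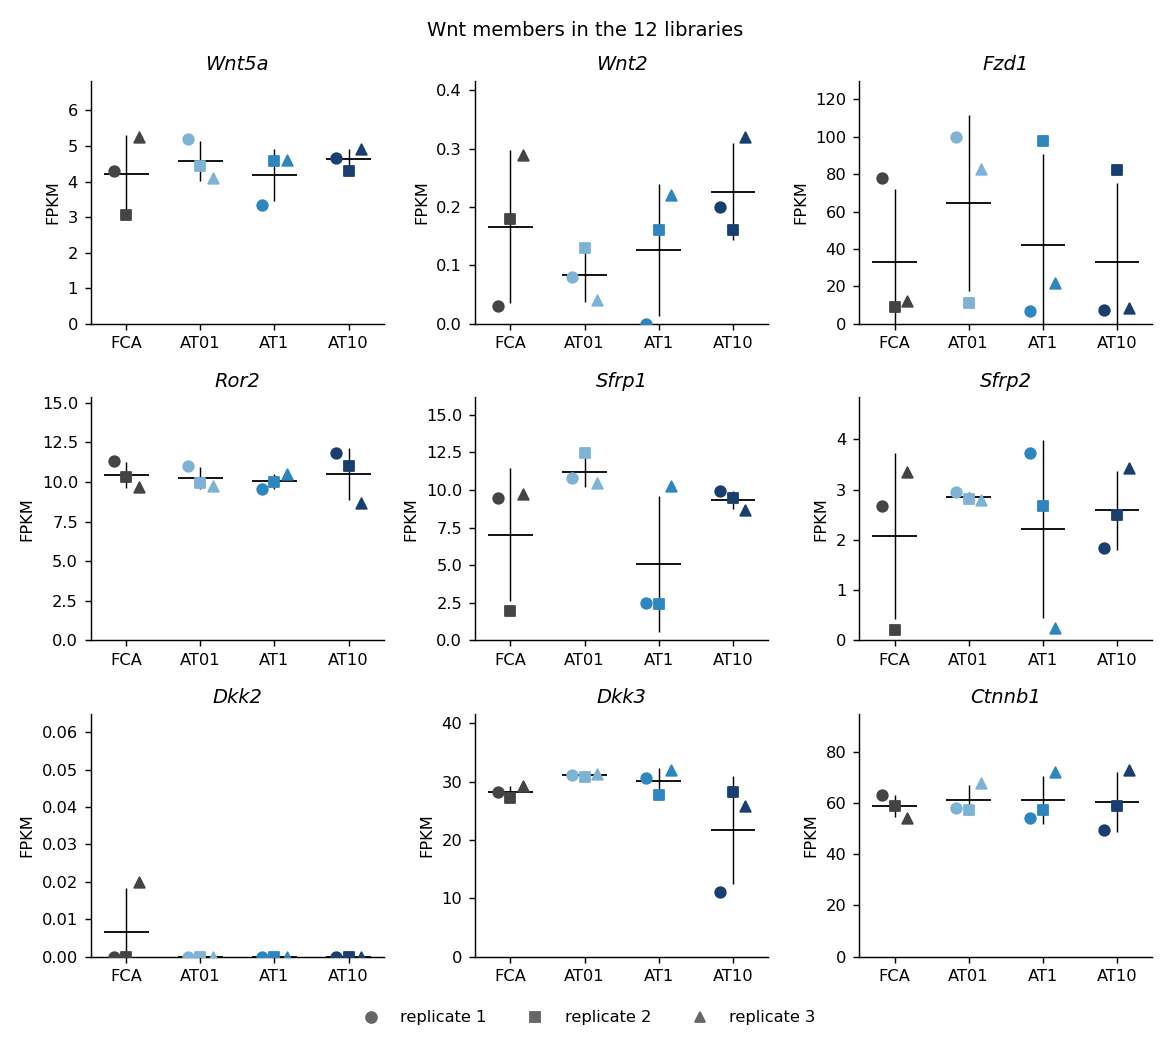
FPKM of the 9 members with a record, on a linear vertical axis that starts at 0 and is scaled separately for each gene, in FCA, AT01, AT1 and AT10. Each point is 1 library with its shape giving the replicate number, the horizontal line is the group mean and the vertical line is 1 SD to either side, stopped at 0 (n = 3); Fzd1 runs from 6.62 to 99.8 FPKM while Ror2 stays between 8.69 and 11.8 FPKM.

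Among the ligands, Wnt5a, the main non-canonical Wnt of mesenchymal cells, was present at a steady, moderate level. Its record (MSTRG.6737) was at 4.31, 3.05 and 5.25 FPKM in FCA, 5.19, 4.43 and 4.09 FPKM in AT01, 3.34, 4.58 and 4.61 FPKM in AT1, and 4.65, 4.31 and 4.91 FPKM in AT10. The groups overlapped throughout, and the lowest library was FCA 2. On the log2(FPKM + 1) scale the difference from FCA was 0.13 ± 0.17 (SE, n = 3 and 3) in AT10, 0.01 ± 0.19 in AT1 and 0.12 ± 0.18 in AT01, with 95% intervals that stayed between -0.48 and 0.56. Of the summed FPKM of the 15 Wnt ligand genes with a record, Wnt5a alone made up between 49.7% and 64.9% of the total, with a median of 62.2%.

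Wnt2, a ligand of the β-catenin branch, was near the lower limit of the values (record ENSRNOG00000051905). It was listed at 0.03, 0.18 and 0.29 FPKM in FCA, 0.08, 0.13 and 0.04 FPKM in AT01, 0, 0.16 and 0.22 FPKM in AT1, and 0.20, 0.16 and 0.32 FPKM in AT10. All 3 AT10 libraries were above all 3 AT01 libraries, where the two-sided exact permutation p was 0.1, the smallest that 3 libraries against 3 can give, and the groups overlapped in the other comparisons. Of the tested records, which leave out Wnt2, 11.1% had groups without overlap in AT10 against AT01.

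Among the receptors, Fzd1, a Frizzled receptor with a seven-pass membrane domain that binds Wnt through its cysteine-rich part, had the widest range in FPKM of any tested member. Its main record (MSTRG.12264) was at 78.0, 8.98 and 11.98 FPKM in FCA, 99.8, 11.2 and 82.5 FPKM in AT01, 6.62, 97.5 and 21.6 FPKM in AT1, and 7.58, 82.1 and 8.64 FPKM in AT10. Each group therefore held at least 1 library at 78.0 FPKM or more and at least 1 at 21.6 FPKM or less, and the 5 high and 7 low libraries were parted by a gap of 1.80 on the log2(FPKM + 1) scale. The differences from FCA, at -0.19 ± 1.19 (SE, n = 3 and 3) in AT10, 0.24 ± 1.2 in AT1 and 1.11 ± 1.13 in AT01, were smaller than their errors, and the AT01 interval ran from -1.68 to 3.90. With 1 library left out the AT01 difference lay between 0.55 (without FCA 2, and likewise without AT01 1) and 2.08 (without AT01 2), with 2.04 without FCA 1, 0.69 without AT01 3 and 0.74 without FCA 3. Fzd1 made up from 33.3% to 91.1% of the summed FPKM of the 9 Frizzled genes with a record.

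Ror2 (MSTRG.7339), the tyrosine kinase-like receptor through which Wnt5a signals, was less variable than Fzd1, the only other receptor member with a record. Its level was 11.3, 10.3 and 9.71 FPKM in FCA, 11.0, 9.96 and 9.76 FPKM in AT01, 9.57, 10.0 and 10.5 FPKM in AT1, and 11.8, 11.0 and 8.69 FPKM in AT10. The highest library was 1.36 times the lowest, and the groups overlapped in all comparisons. Its log2 difference from FCA was 0.00 in AT10 (95% interval -0.31 to 0.31), -0.05 in AT1 (-0.24 to 0.14) and -0.02 in AT01 (-0.24 to 0.20). Of Ror1 and Ror2 together, Ror2 supplied between 92.7% and 98.9% of the FPKM.

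The 250 bases before the annotated start are given for Fzd1 and Sfrp2, which had 2 levels, and for Ror2, which did not, to set their upstream DNA side by side. RefSeq's promoter table for the rat (GRCr8, a build not tied to the deposited records) had an entry for 6 of the 10 members, of which 4 ended at the gene's own start. Capitals mark matches on either strand to CTTTG (the core of TCF/LEF sites), TGACG (the core of cAMP response elements), GGGCGG (the GC box) or TATAAA (the TATA box), none of which overlapped another match here. The Fzd1 window is chr4:30264824-30265073, that of Sfrp2 is chr2:171387286-171387535 and that of Ror2 is chr17:12124499-12124748, all on the plus strand and written 5′ to 3′.
Fzd1: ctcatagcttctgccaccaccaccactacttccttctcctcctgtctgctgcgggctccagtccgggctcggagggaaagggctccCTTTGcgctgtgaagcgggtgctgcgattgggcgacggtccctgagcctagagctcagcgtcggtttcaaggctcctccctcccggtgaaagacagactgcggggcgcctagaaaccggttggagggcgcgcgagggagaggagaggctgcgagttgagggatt
Sfrp2: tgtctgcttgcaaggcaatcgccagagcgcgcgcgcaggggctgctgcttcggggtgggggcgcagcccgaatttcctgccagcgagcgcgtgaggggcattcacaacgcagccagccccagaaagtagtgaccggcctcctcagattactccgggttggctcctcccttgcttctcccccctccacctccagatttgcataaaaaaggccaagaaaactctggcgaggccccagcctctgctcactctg
Ror2: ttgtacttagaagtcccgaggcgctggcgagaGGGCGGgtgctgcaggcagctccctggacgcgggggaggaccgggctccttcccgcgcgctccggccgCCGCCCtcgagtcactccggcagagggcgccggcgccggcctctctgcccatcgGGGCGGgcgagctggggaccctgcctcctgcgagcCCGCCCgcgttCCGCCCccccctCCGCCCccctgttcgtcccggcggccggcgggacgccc
The Fzd1 window had 1 match to CTTTG, first base at position -164 from the start, and 48.2% of all 33469 windows of that length held this run of letters. Ror2 had 6 matches to the GC box, which 30.5% of windows held at least once, and Sfrp2 had no match to any of the 4 motifs. TGACG occurred in 18.2% and TATAAA in 12.9% of all windows and in none of these. The GC content was 63.6% for Fzd1, 62.4% for Sfrp2 and 78.4% for Ror2, against a median of 51.2%. A match is a run of letters and no evidence of binding.

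Among the secreted antagonists, Sfrp1, which binds Wnt ligands through a Frizzled-like domain, was at 9.46, 1.94 and 9.71 FPKM in FCA, 10.8, 12.4 and 10.5 FPKM in AT01, 2.46, 2.42 and 10.3 FPKM in AT1, and 9.91, 9.46 and 8.70 FPKM in AT10 (MSTRG.7126). The 3 low libraries, FCA 2, AT1 1 and AT1 2, were parted from the other 9 by a gap of 1.49 on the log2(FPKM + 1) scale. Every AT01 library was above every FCA, AT1 and AT10 library. The log2 difference from FCA was 0.58 ± 0.52 (SE, n = 3 and 3) in AT10, -0.43 ± 0.71 in AT1 and 0.82 ± 0.52 in AT01, none of them past the test. Without FCA 2 the AT10 difference was -0.03, the AT1 difference -1.05 and the AT01 difference 0.20.

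Sfrp2, the related antagonist known as a product of stromal fibroblasts, was at 2.68, 0.21 and 3.35 FPKM in FCA, 2.96, 2.82 and 2.79 FPKM in AT01, 3.72, 2.67 and 0.25 FPKM in AT1, and 1.84, 2.49 and 3.42 FPKM in AT10 (MSTRG.9556). FCA 2 and AT1 3 were near 0 and the other 10 libraries lay between 1.84 and 3.72 FPKM. Its log2 difference from FCA was 0.39 ± 0.51 (SE, n = 3 and 3) in AT10, 0.05 ± 0.70 in AT1 and, in AT01, 0.52 ± 0.49. Without FCA 2 these became -0.18, -0.52 and -0.05, so the sign of all 3 rested on that library. The sign in AT1 did not rest on FCA 2 alone, since it reversed in 3 of the fits with 1 library left out.

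Dkk3, a Dickkopf-family protein that differs from its relatives in how it affects Wnt, was on average the most abundant antagonist, with between 28.8% and 60.8% of the summed FPKM of 12 antagonist genes. It was at 28.2, 27.2 and 29.2 FPKM in FCA, 31.2, 30.8 and 31.3 FPKM in AT01, 30.6, 27.7 and 32.02 FPKM in AT1, and 11.0, 28.2 and 25.7 FPKM in AT10 (MSTRG.1330). All 3 AT01 libraries were above all 3 FCA libraries by a narrow margin, with means of 31.1 ± 0.25 FPKM and 28.2 ± 1.02 FPKM (SD, n = 3) and a log2 difference of 0.14 (95% interval -0.02 to 0.29, adjusted p = 0.722, limma). In AT10 the mean of 21.6 ± 9.29 FPKM (SD, n = 3) was set by AT10 1, and the log2 difference from FCA moved from -0.47 to -0.06 without it. Dkk2 (ENSRNOG00000011360), an antagonist of the LRP co-receptors, was listed at 0.02 FPKM in FCA 3 and at 0 in the other 11 libraries.

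Ctnnb1, the gene of β-catenin, was at 63.3, 59.1 and 54.4 FPKM in FCA, 58.3, 57.3 and 68.0 FPKM in AT01, 54.4, 57.5 and 72.2 FPKM in AT1, and 49.6, 58.9 and 73.2 FPKM in AT10 (MSTRG.17573). The group means differed by less than the spread within any group, at 58.9 ± 4.44 FPKM in FCA, 61.2 ± 5.87 in AT01, 61.4 ± 9.47 in AT1 and 60.6 ± 11.9 in AT10 (SD, n = 3). The 95% interval of its log2 difference from FCA ran from -0.35 to 0.40 in AT10, from -0.26 to 0.36 in AT1 and from -0.19 to 0.30 in AT01. These are levels of the mRNA, while β-catenin is regulated mainly as a protein, which was not measured in these libraries.

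The 2 separate levels were the clearest pattern among the members. A record was taken to have them where the widest gap between its sorted values was at least 1 on the log2(FPKM + 1) scale, was larger than the spread inside both levels, and each level held 2 or more libraries. This was so for 3 of the 7 tested members (Fzd1, Sfrp1 and Sfrp2), against 4.52% of all tested records. The libraries divided differently for each gene. FCA 2 was at the low level of all 3, whereas AT1 1 was low for Fzd1 and Sfrp1 and highest of all for Sfrp2, and AT1 3 was low for Fzd1 and Sfrp2 at an Sfrp1 level of 10.3 FPKM. FCA 2 was also the lowest of the 12 libraries for Wnt5a. The deposited records of Fzd1, Sfrp1 and Sfrp2 were built from 3, 5 and 1 assembled transcripts, those of Ror2 and Ctnnb1, which had 1 level, from 7 and 5, and whether the assembly has a part in the levels was not tested.

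**Figure D2:**
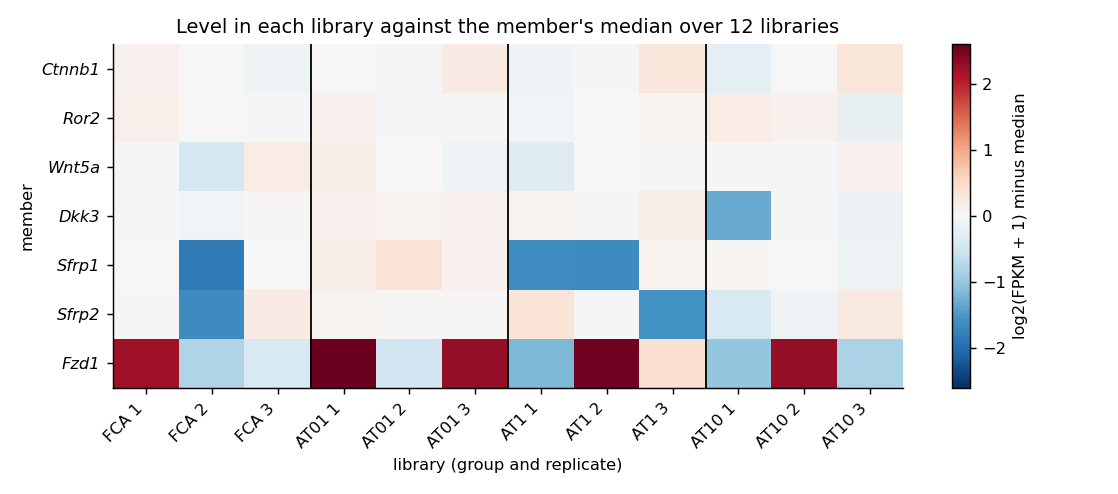
Each cell gives log2(FPKM + 1) of a tested member (rows) in a library (columns, grouped as FCA, AT01, AT1 and AT10) minus that member's median over the 12 libraries, with red above and blue below the median. Fzd1 switches between strong red and paler blue inside every group, and its cell in AT1 3 is pale red. The 3 dark cells of Sfrp1 are FCA 2, AT1 1 and AT1 2, those of Sfrp2 are FCA 2 and AT1 3, and the single dark cell of Dkk3 is AT10 1.

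The question of the comparison with FCA was whether TCDCA changed these genes at each dose. With AT10, 0 of 7 members passed the adjusted p (0.172% of all records did), 0 met the study's criterion, a p under 0.05 and a log2 fold change beyond 1, taken here with limma's unadjusted p since no adjustment is stated (0.706%), and 0 had groups without overlap (19.9%). With AT1 the counts were likewise 0 by adjusted p (0.0947% of records), 0 by the criterion (0.62%) and 0 without overlap (19.9%). With AT01 they were 0 by adjusted p (0.0947%) and 0 by the criterion (0.758%), while 2 members, Sfrp1 and Dkk3, had AT01 libraries all above FCA (14% of records had groups without overlap). In these 3 limma comparisons 0 members had an unadjusted p under 0.05, as did 11.9% of all records with AT10, 11% with AT1 and 6.6% with AT01. With no filter on low values, Dkk3 in AT01 had an unadjusted p of 0.013 in limma (adjusted p = 0.654). A test in the manner of Ballgown, the package of the study, gave it 0.0215 (adjusted p = 0.762). No share of all records stands beside these values. Over the 7 members the median log2 difference was 0.02 with AT10, 0.05 with AT1 and 0.14 with AT01, beside -0.01, 0.02 and 0.00 over all tested records. These comparisons share the FCA libraries, FCA 2 included, so their values are not independent of each other.

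**Figure D3:**
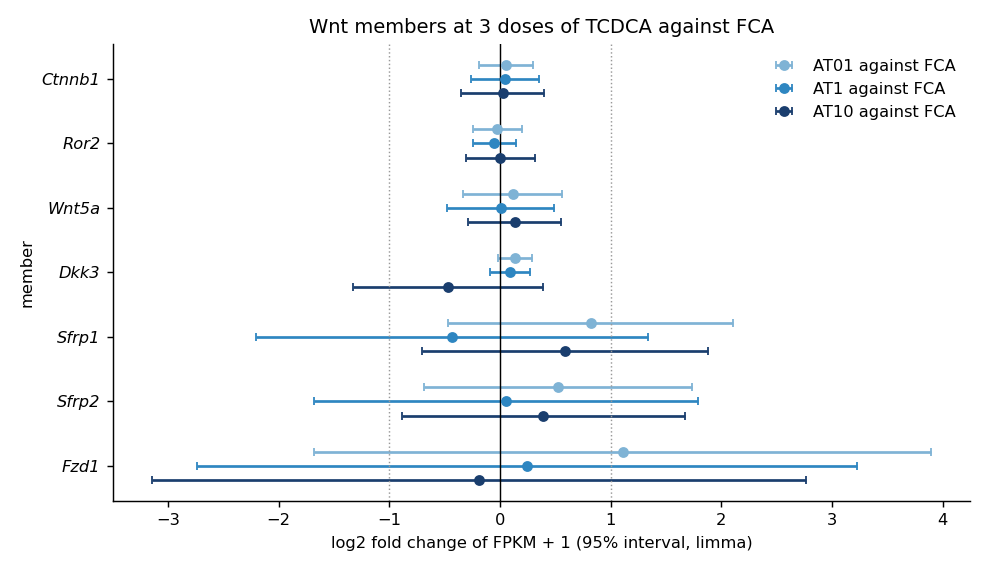
Log2 fold change of FPKM + 1 against FCA (horizontal axis) for the 7 tested members, with 1 point per TCDCA dose and bars for the 95% interval of limma (3 libraries against 3); dotted lines mark -1 and 1. All intervals include 0, and they are narrowest for Dkk3 in AT1 and AT01 and for Ror2 in AT1, and widest for Fzd1, where the AT01 interval ends at 3.90.

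With the 9 TCDCA libraries pooled against the 3 FCA libraries, the members' log2 differences lay between -0.08 for Dkk3 and 0.39 for Fzd1. Of the 7 members, 0 passed the adjusted p in limma (0.0258% of records) or the criterion of the study (0.491%), and 0 had an unadjusted p under 0.05 (12%). Across the 4 groups, 0 members passed limma's F test at an adjusted p under 0.05 (0.0431% of records) and 0 had an unadjusted p under 0.05 (8.57%). Over 15400 exact groupings of the 12 libraries, 1 of 9 unadjusted p-values was under 0.05, that of Dkk3 (exact permutation p = 0.0395, against an adjusted p of 0.652 in limma's F test), for which AT10 1 was low and the AT01 libraries were close together. The exact test over 4 groups was run on the members only, so no share of all records stands beside it.

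Between doses, Sfrp1 was the member with the smallest unadjusted p, although the Fzd1 difference of -1.30 ± 1.2 (SE, n = 3 and 3) in AT10 against AT01 was as large. Its mean was 5.06 ± 4.53 FPKM in AT1 and 11.2 ± 1.06 FPKM in AT01 (SD, n = 3), a log2 difference of -1.25 ± 0.49 (SE) with an unadjusted p of 0.0441 and an adjusted p of 1 in limma. It was therefore the 1 of 7 members that met the criterion of the study in AT1 against AT01 (0.568% of records). No member passed the adjusted p there (0.129% of records), and Sfrp1 was the 1 member without overlap (8.6%). Of the AT1 libraries, AT1 3 at 10.3 FPKM was close to the AT01 libraries, and without it the difference was -1.83 with an adjusted p of 0.0218, whereas without AT1 2 it was -0.96 and the criterion was no longer met. It was not met either without AT1 1 or without any 1 of the AT01 libraries. With a test in the manner of Ballgown, the package of the study, the Sfrp1 difference was -0.96 with an unadjusted p of 0.412, and limma gave an unadjusted p of 0.0563 with the replicate number as a block and 0.06 with no filter on low values, so the criterion was met in none of these. AT10 against AT01 gave a smaller Sfrp1 difference of -0.24 ± 0.10 (SE, n = 3 and 3), with an unadjusted p of 0.0492 and an adjusted p of 0.867 in limma.

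In AT10 against AT01, 0 members passed the adjusted p (0.0689% of records) or the criterion of the study (0.672%), and 2, Sfrp1 and Dkk3, were lower in every AT10 library than in any AT01 library (11.1% of records had groups without overlap). In AT10 against AT1, 0 members passed the adjusted p (0.258%), 0 met the criterion (0.594%) and 0 were without overlap (13.9%). The Sfrp1 difference in that comparison, 1.02 ± 0.49 (SE, n = 3 and 3), had an unadjusted p of 0.0839 in limma, with 2 of the 3 AT1 libraries at the low level of Sfrp1.

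The other genes of the pathway were taken from a list of 102, of which 92 had a record and 54 reached a mean of 1 FPKM. With an adjusted p under 0.05 (limma), 0 of the 54 were called in each of the 3 comparisons with FCA, or in the comparisons of AT01 with AT10 and AT1, and 1 was called, lower, in AT10 against AT1. Of all tested records, 0.172%, 0.0947% and 0.0947% were called with AT10, AT1 and AT01 against FCA. The share was 0.0689% in AT10 against AT01, 0.129% in AT1 against AT01 and 0.258% in AT10 against AT1. At an unadjusted p under 0.05 (limma), AT10 against FCA gave 0 higher and 1 lower, AT1 gave 2 higher and 3 lower, and AT01 gave 1 higher and 2 lower, where 11.9%, 11% and 6.6% of all tested records passed in either direction. Over the 54 genes the median log2 difference from FCA was -0.08 with AT10, 0.02 with AT1 and -0.00 with AT01. The groups did not overlap for 9, 11 and 10 of the 54 genes, against 19.9%, 19.9% and 14% of all tested records.

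The gene called was Ctnnbip1, which encodes an inhibitor that keeps β-catenin from binding TCF factors. It was at 1.90, 1.28 and 1.23 FPKM in AT10, 7.77, 7.50 and 7.20 FPKM in AT1, 7.91, 2.40 and 8.29 FPKM in FCA, and 1.79, 1.94 and 7.35 FPKM in AT01. AT10 and AT1 did not overlap, as was so for 13.9% of all tested records. FCA and AT01 each held libraries at either level, so Ctnnbip1 had the 2 separate levels seen in Fzd1, Sfrp1 and Sfrp2. The log2 difference of AT10 from AT1 was -1.79 ± 0.12 (SE, n = 3 and 3, adjusted p = 0.00629, limma), and that of AT10 from FCA was -1.42 ± 0.41 (adjusted p = 0.297), which met the criterion of the study (0.706% of records). In 1 limma fit over all 12 libraries the adjusted p for AT10 against AT1 was 0.534, and without AT1 1 it was 0.0519.

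Fzd7, a Frizzled receptor, also met the criterion of the study, in AT10 against AT01 (1.02 ± 0.27 on the log2 scale, SE, adjusted p = 0.867, limma) and in AT1 against AT01 (1.33 ± 0.28, adjusted p = 1). Of all tested records, 0.672% and 0.568% met the criterion in these comparisons. The levels of Fzd7 were low, at 1.07, 0 and 0.56 FPKM in AT01, 3.20, 2.62 and 2.41 FPKM in AT1, 1.91, 1.80 and 2.29 FPKM in AT10, and 1.13, 1.99 and 1.21 FPKM in FCA. AT01 lay below and AT1 above FCA in every library, where 14% and 19.9% of all tested records had groups without overlap. Myc, a target gene of β-catenin chosen after its values were seen, was at 22.6, 26.2 and 24.3 FPKM in FCA and at 17.8, 19.9 and 16.8 FPKM in AT1, a log2 difference of -0.41 ± 0.09 (SE, n = 3 and 3) with an adjusted p of 0.369 (limma). In AT01 it was at 20.6, 19.9 and 19.8 FPKM, again below every FCA library, with a log2 difference of -0.26 ± 0.08 (adjusted p = 0.696, limma), and in AT10 it was at 23.1, 24.9 and 26.5 FPKM. For Myc too, the same shares of all tested records, 19.9% with AT1 and 14% with AT01, had groups without overlap.

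The most abundant gene of each group of the list is given next, from a list that leaves out the members. Fzd1 (mean 43.0 FPKM) is thus not among its Frizzled receptors, nor Dkk3 (27.8 FPKM) among its antagonists. Among target genes the most abundant was Wisp2, a matricellular protein gene, at 130 ± 20.3 FPKM (SD, n = 12), and among co-receptors Ptk7, a planar polarity receptor, at 62.2 ± 4.74 FPKM. Pygo2, a nuclear partner of β-catenin, was at 48.6 ± 5.55 FPKM, and Wls, the carrier that brings Wnt proteins to the cell surface, at 38.3 ± 3.97 FPKM. Csnk1d of the casein kinases was at 28.6 ± 5.12 FPKM, the Dishevelled gene Dvl1 at 13.2 ± 1.31 FPKM and the antagonist Sfrp4 at 10.1 ± 0.89 FPKM. These lay well above Fzd4 at 3.19 ± 1.5 FPKM, the R-spondin receptor Lgr4 at 2.38 ± 0.59 FPKM and Wnt9a, the highest ligand after Wnt5a, at 1.27 ± 0.22 FPKM. Fzd4 was at 0.01 FPKM in AT10 2, 0 in FCA 3 and between 3.53 and 4.22 FPKM in the other 10 libraries. Separate levels were thus seen for 2 of the 54 listed genes, Fzd4 and Ctnnbip1, where 4.52% of all tested records had them. None of the 10 passed limma's F test over the 4 groups at an adjusted p under 0.05 or at an unadjusted p under 0.05. Of all tested records, 0.0431% and 8.57% did. Between pairs of groups, Wls was higher in AT1 than in FCA, by 0.27 ± 0.07 on the log2 scale (SE, n = 3 and 3). Its unadjusted p was 0.0118 and its adjusted p 0.42 (limma), where 11% of all tested records had an unadjusted p under 0.05.

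**Figure D4:**
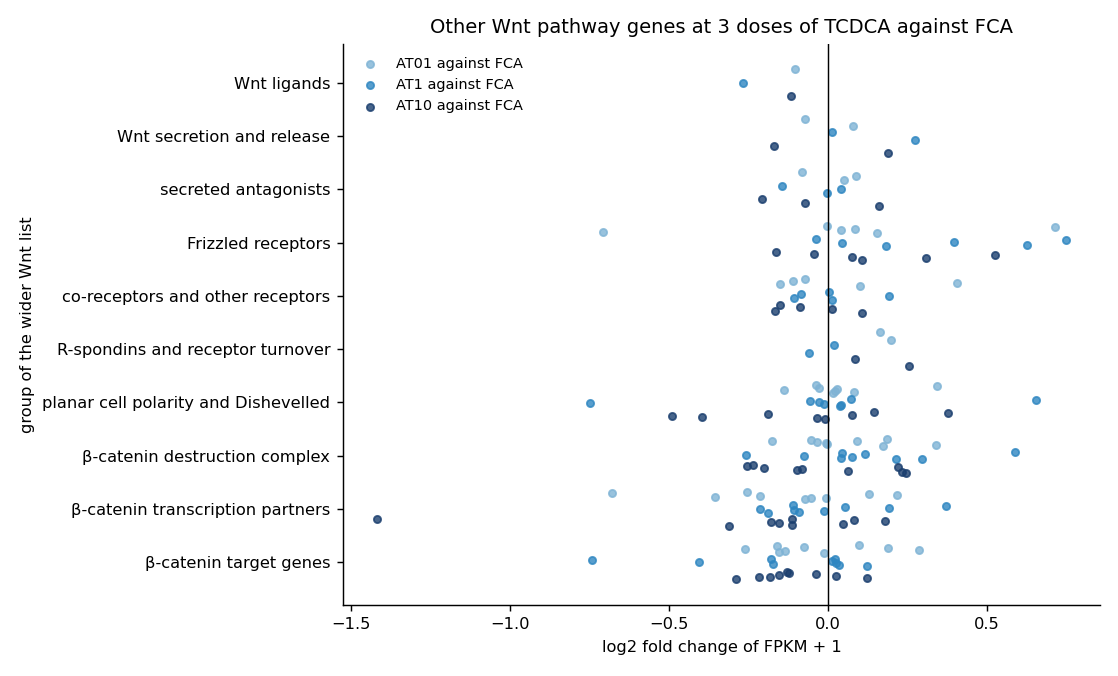
Log2 fold change of FPKM + 1 against FCA (horizontal axis) for the 54 tested genes of the wider list, split by their place in the pathway (vertical axis), with 1 point per gene and TCDCA dose. Most points lie close to 0, and the point furthest to the left, at -1.42, is Ctnnbip1 in AT10.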

How the data were processed

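Poly(A) RNA of 12 FLS libraries was sequenced. The authors used HISAT2 for alignment and StringTie with Ballgown for expression, and the deposited FPKM values, given to 2 decimals, are scaled per transcript length and library. The submitters' notes also name cutadapt and edgeR. The genome build is not given in the sources used here, and read totals per library are stated by the study, but the reads behind a single value are unknown.

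Members were matched by symbol, and the record of highest mean FPKM was used. log2(FPKM + 1) was fitted, for the 11611 records averaging 1 FPKM or more, with limma 3.58.1 in R 4.3.3 (lmFit, eBayes with trend), with only the libraries compared, and p-values were adjusted over all records. Exact permutation tests were two-sided. Motifs and figures were made with Python 3.11.15, pandas 2.3.3 and Matplotlib 3.10.9. Scripts were tested on simulated data.

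Named were the 10 members, each gene of the wider list that passed the adjusted p or the criterion of the study in any comparison, and the most abundant gene of each of its 10 groups. Myc was added after its values were seen. The members and lists were chosen with earlier results of these data known. The main fits did not pair libraries by replicate number, and alternatives, a replicate block included, are given in the closing section.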

Additional observations from a re-analysis of the deposited data

Results flagged for a closer look

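Dkk3 in the library AT10 1, at 11.0 FPKM (11.01 as deposited), stood apart from the other 8 TCDCA libraries, which lay between 25.7 and 32.02 FPKM. Its gap to the nearest of them was 0.701 of the range of the 9 libraries, beyond Dixon's 95% critical value for 9 samples. The 7 tested members were examined in this way, and chance alone takes about 1 of 20 groups past that critical value. A second record named Fzd1 (MSTRG.12265), not used in the comparisons, was at 0.91 FPKM in AT01 3 and at 0 in the other 11 libraries, the 3 FCA libraries included.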

How the results depend on the processing

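The alternatives changed the pseudocount to 0.1, the filter to none or to 10 FPKM on average (which dropped Wnt5a, Sfrp1 and Sfrp2), the fit to all 12 libraries at once, the scaling to median-of-ratios, the records to sums by gene name, the design to a replicate block and the test to a Ballgown-style F test, or left out each library in turn. Among counts of members called, 106 of 110 were equal to those reported with whole settings changed and 88 of 96 with a library left out. In AT1 against AT01, 0 members met the criterion of the study with no filter, at 10 FPKM, under the replicate block and with the Ballgown-style test, and between 0 and 1 with a library left out. Over all records, between 26 and 96 met it there with settings changed and between 55 and 81 with a library left out. Without AT1 replicate 3 the count rose from 0 to 1 by adjusted p in AT10 against AT1 and in AT1 against AT01, and from 0 to 1 by the criterion in AT10 against AT1. The calls over all 11611 records rose as well without that library. By adjusted p they went from 30 to 50 in AT10 against AT1 and from 15 to 19 in AT1 against AT01. By the criterion they went from 69 to 108 in AT10 against AT1. Members' log2 fold changes kept their sign in 166 of 173 values under changed settings. The reversals were Ror2 in AT10 (-0.0012) and Wnt5a in AT1 (-0.011) with median-of-ratios scaling, and, with the Ballgown-style test, Fzd1 (0.24) and Ctnnb1 (-0.025) in AT10 and Wnt5a (-0.35), Sfrp2 (-0.95) and Ror2 (0.056) in AT1. All were against FCA, and the cause was not tested. With a library left out, 30 of 138 reversed. In AT10 against FCA, Wnt5a ranged from -0.036 to 0.28, Sfrp1 ranged from -0.033 to 0.90, Sfrp2 ranged from -0.18 to 0.74, Fzd1 ranged from -1.26 to 0.74, Ror2 ranged from -0.081 to 0.12 and Ctnnb1 ranged from -0.12 to 0.16. In AT1 against FCA, Wnt5a ranged from -0.16 to 0.15, Sfrp2 ranged from -0.52 to 0.63, Fzd1 ranged from -0.72 to 1.18, Ror2 ranged from -0.10 to 0.0040 and Ctnnb1 ranged from -0.071 to 0.13. In AT01 against FCA, Wnt5a ranged from -0.053 to 0.26, Sfrp2 ranged from -0.053 to 0.87, Ror2 ranged from -0.072 to 0.031 and Ctnnb1 ranged from -0.024 to 0.10. The largest reported change among those that reversed was 0.58. Whether libraries with the same replicate number share an origin is not stated. The 18 correlations of deviations between same-numbered libraries of different groups lay between -0.11 and 0.094. They cannot settle this, since a shared origin with little effect would give such values too. Under the replicate block Ctnnbip1 had an adjusted p of 0.12 (limma) in AT10 against AT1. Over its 13 alternatives that adjusted p ran from 0.00561 to 0.534, with 9 under 0.05.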
